A study of Mus musculus with 21 samples.

Results

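GSKJ4, an inhibitor of the Kdm6 histone demethylases, was compared with no treatment at D4H8, the point 8 hours into day 4 of motor neuron differentiation from mouse embryonic stem cells. The comparison used the 6 libraries that carry this stage in their labels, 3 treated and 3 untreated, out of 21 in the series, and it covered every gene of the count table. All cultures came from wild-type C57BL/6 embryonic stem cells that had been kept on mouse embryonic fibroblasts, formed embryoid bodies and received 1 µM retinoic acid and 0.5 µM of the Sonic hedgehog agonist SAG from day 2. Both groups were also given 5 µM DAPT, an inhibitor of the protease that activates Notch receptors, from day 4, in a protocol directed to the hypaxial motor column. Treated cultures were exposed to GSKJ4 for 1 day, from 8 hours into day 3 to D4H8. The GSKJ4 dose and the vehicle used for the RNA samples are not given in the sources used here. Untreated libraries from D4, D5 and D6 and treated libraries from D5 and D6, 3 of each kind, served only to place the D4H8 values.

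Kdm6b and its relative Kdm6a remove methyl groups from H3K27me3, a histone mark that Polycomb complexes write on silent developmental genes. GSKJ4 enters cells as an ester and blocks the catalytic pocket that these enzymes share with other iron- and 2-oxoglutarate-dependent oxygenases. In the ventral spinal cord, motor neurons arise from progenitors that carry Olig2, the proneural factor Neurog2 starts their differentiation, and Isl1 with Lhx3 then sets motor neuron identity.

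The libraries held 14982115 to 34383842 counts in the untreated group and 15714030 to 17131522 in the treated group. The libraries are labelled as biological replicates. Treated replicate 2 was the least like its group. Its Pearson correlations with the other treated libraries, across tested genes on the log2 scale, were 0.953 and 0.961, against 0.975 between treated replicates 1 and 3 and 0.981 to 0.991 among untreated libraries. Mitochondrially encoded genes took 5.33% of its counts and 1.65% to 2.27% of the counts of the other 5 libraries. Its levels also followed gene length. Set against the untreated mean, its median log2 level was -0.44 in the shortest and 0.42 in the longest of 5 equal classes of genes by exonic length, while treated replicate 1 went from -0.22 to 0.14 and treated replicate 3 from -0.06 to -0.01. The cause of these differences was not tested. Counts without treated replicate 2, or after removal of each library's length trend, are given beside some of the gene lists whose counts they moved. Counts of other lists moved as well.

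**Figure D1:**
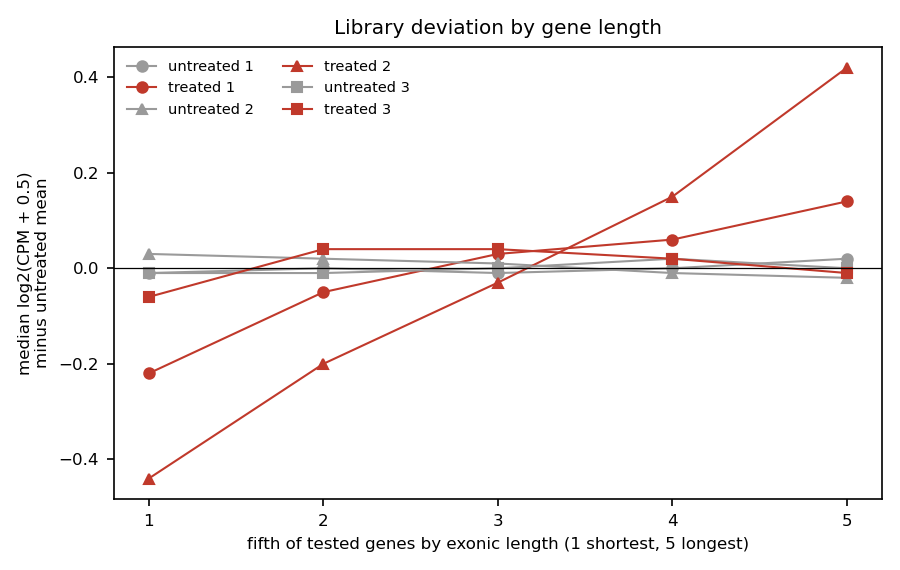
Median log2(CPM + 0.5) of each of the 6 libraries minus the untreated mean, for the tested genes divided into 5 classes by exonic length. Treated replicate 2 runs from -0.44 in the shortest to 0.42 in the longest class, and the untreated libraries stay between -0.02 and 0.03.

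The labels call the cells differentiated motor neurons, and the markers placed the D4H8 cultures earlier. Untreated cells had a mean of 98.2 ± 22.8 FPKM (SD, n = 3) of the progenitor factor Olig2, which was at 1.24 ± 0.632 FPKM (SD, n = 3) on D6. Chat, the acetylcholine-synthesizing enzyme of mature motor neurons, was at 1.41 ± 0.370 FPKM (SD, n = 3) at D4H8 and 27.1 ± 4.04 FPKM (SD, n = 3) on D6. Slc5a7, the choline transporter, stayed at or below 20 counts in every D4H8 library. Among markers of other cells, the blood and microglial gene Ptprc was at 0 in all 6 libraries and Csf1r, Cx3cr1 and Hba-a1 did not exceed 20 counts. The 8 fibroblast feeder markers summed to 61.4 to 114 CPM (counts scaled to a common library total) in untreated and 93.1 to 214 CPM in treated libraries, and the 5 pluripotency markers to 55.3 to 248 and 122 to 291 CPM. None of the markers of these 2 cell types was called by edgeR, with 2 of 6 tested fibroblast markers and 0 of 5 pluripotency markers at an unadjusted p under 0.05, and their part in the results below was not tested. Of all tested genes, 14.1% were higher and 11% lower at an unadjusted p under 0.05. In bulk samples, fewer cells of a type and less RNA per cell cannot be told apart.

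Kdm6b was at 24.6 ± 1.26 FPKM (SD, n = 3) in untreated and 29.5 ± 9.27 FPKM (SD, n = 3) in treated cells, with a log2 fold change of 0.22 ± 0.215 (SE) and an adjusted p of 0.545 in the edgeR quasi-likelihood test. Kdm6a had a log2 fold change of 0.02 and an adjusted p of 0.962. Ezh2, the Polycomb enzyme that writes H3K27me3, lay at 221 to 249 CPM in untreated and 130 to 170 CPM in treated libraries, with an adjusted p of 0.0716. GSKJ4 acts on the proteins, so these levels do not check the treatment. Of all 13 tested Kdm6 and Polycomb repressive complex 2 genes none was called by edgeR, 1 had an unadjusted p under 0.05 and DESeq2 called 1 lowered. Of all tested genes, 11% were lower at an unadjusted p under 0.05 and DESeq2 called 5.94% lowered.

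Of 16269 genes tested, 343 rose (2.11%) and 301 fell (1.85%) at an adjusted p under 0.05. All treated values lay above all untreated values for 16.9% of the tested genes and below them for 16.8%, so a gap between the groups was far more common than a call. Lowered genes moved further than raised ones. The median log2 fold change was 1.27 among raised and -1.71 among lowered genes, and 37 raised against 126 lowered genes changed by more than 4-fold. Protein-coding genes made up 98.0% of the raised genes, 86.4% of the lowered genes and 85.4% of all tested genes. Raised genes were also longer, with a median exonic length of 5710 bases against 3923 for lowered and 4039 for all tested genes. From the shortest to the longest of the 5 length classes, the number raised was 20, 42, 64, 93 and 124. The 50 gene lists used below held 53 of the 343 raised and 93 of the 301 lowered genes. Most called genes, 290 raised and 208 lowered, were on none of the lists.

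The number of calls rested on the libraries used. Without treated replicate 2, 998 genes rose (5.98%) and 748 fell (4.48%), and these included 340 of the 343 and 291 of the 301. Leaving out treated replicate 1 gave 193 raised and 348 lowered genes, and leaving out treated replicate 3 gave 266 and 184. Without any 1 of the untreated libraries, 2 or 3 genes passed as raised and 41 to 47 as lowered, although all 343 and all 301 kept their direction in every such fit. Slc16a9 and Slc30a1 were the only raised genes called in all 17 alternative analyses, and 33 lowered genes were. With each library's length trend removed, 542 genes rose (3.33%) and 533 fell (3.28%), among them 330 of the 343 and 294 of the 301.

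**Figure D2:**
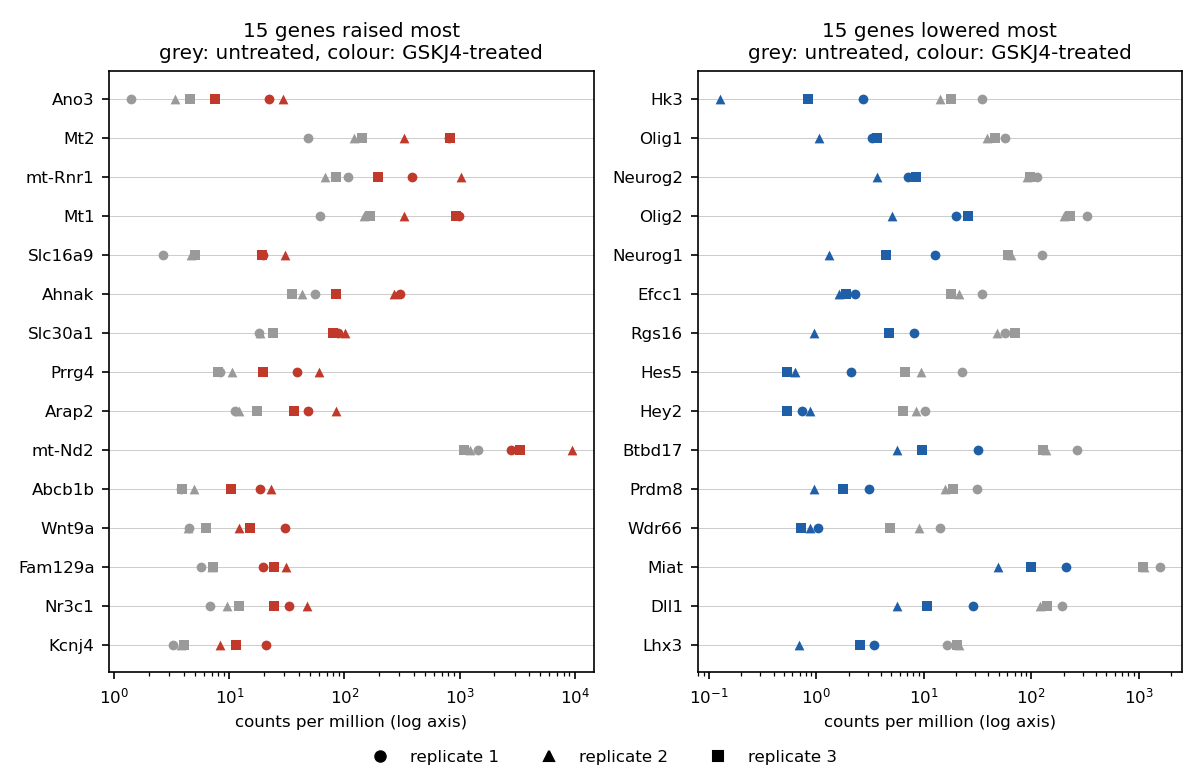
CPM, on a log axis, of the 15 genes raised most and the 15 lowered most in each D4H8 library, with untreated libraries in grey, treated libraries in colour and the replicate given by the marker shape. No overlap between treated and untreated values was a condition for choosing these genes. Treated replicate 2 is the lowest library for Hk3, Olig1, Neurog2, Olig2 and Neurog1.

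Several zinc-handling genes rose, and among them Slc30a1 alone kept its call in every alternative. Slc30a1, which exports zinc from the cell, stood at 18, 18.4 and 23.9 CPM in the untreated libraries and at 87.5, 101 and 78.9 CPM in the treated ones, so every treated library was above 3 times the highest untreated one. Its log2 fold change was 2.15 ± 0.20 (SE, adjusted p = 0.0027), and no left-out library took its adjusted p above 0.0225. The metallothioneins Mt1 and Mt2 code for small cysteine-rich proteins that bind zinc and other metals. Mt1 was at 61.2, 149 and 166 CPM untreated and 996, 330 and 927 CPM treated, and Mt2 at 48.4, 120 and 143 CPM untreated and 807, 329 and 833 CPM treated. Treated replicate 2 had the lowest treated value of both, about midway on the log scale between the groups. Mt1 rose 5.99-fold (adjusted p = 0.0259) and Mt2 6.33-fold (adjusted p = 0.0235). Both lost their call when any 1 untreated library was left out (adjusted p from 0.0712 to 0.117). Mt1 also lost it without treated replicate 3 (adjusted p = 0.0555). Mt1 and Mt2 are similar genes, so reads could be shared between them.

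Of the 22 tested metallothioneins and zinc transporters, 4 rose (Mt1, Mt2, Slc30a1 and Slc30a4) and 1 fell. These were 18.2% and 4.55%, against 2.11% and 1.85% of all tested genes. The list's median log2 fold change was 0.24, against 0.02 over all tested genes. Slc30a4, another zinc exporter, rose 2.23-fold (adjusted p = 0.0343). Slc39a14, which imports zinc, iron and manganese, went the other way, from 275, 183 and 200 CPM to 76.3, 62.3 and 75.8 CPM, a fall of 1.62 on the log2 scale (adjusted p = 0.00993). Slc30a2, a vesicular zinc transporter that was not on the list and was picked out after its values were seen, rose from between 0.517 and 1.06 CPM to between 3.65 and 4.30 CPM (adjusted p = 0.0262). Of 22 tested iron genes none was called by edgeR, 5 were higher at an unadjusted p under 0.05 and DESeq2 called 3 raised. Of all tested genes, 14.1% were higher and 11% lower at an unadjusted p under 0.05, and DESeq2 called 7.68% raised and 5.94% lowered, so such counts in short lists are not read as results about them.

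Metal-responsive genes are known for short elements upstream of their starts that the factor Mtf1 binds. The promoters of Mt1, Mt2 and Slc30a1 are shown because these genes lead the raised class. Each line is the 250 bases before the annotated start (RefSeq, GRCm38.p6, 5′ to 3′ on the gene's strand, all on the + strand) of chr8:94178839-94179088, chr8:94172368-94172617 and chr1:191906531-191906780, with the letters TGCACNC or TGCGCNC on either strand in capitals:
Mt1: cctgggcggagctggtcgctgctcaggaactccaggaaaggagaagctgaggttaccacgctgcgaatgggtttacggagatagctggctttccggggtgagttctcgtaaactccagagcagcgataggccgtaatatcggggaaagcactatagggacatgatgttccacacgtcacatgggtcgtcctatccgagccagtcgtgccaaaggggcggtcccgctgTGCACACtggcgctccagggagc
Mt2: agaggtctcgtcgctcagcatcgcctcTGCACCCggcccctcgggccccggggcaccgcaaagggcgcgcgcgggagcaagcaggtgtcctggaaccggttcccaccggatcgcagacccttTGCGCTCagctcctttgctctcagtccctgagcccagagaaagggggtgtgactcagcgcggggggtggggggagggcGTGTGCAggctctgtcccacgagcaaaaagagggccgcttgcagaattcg
Slc30a1: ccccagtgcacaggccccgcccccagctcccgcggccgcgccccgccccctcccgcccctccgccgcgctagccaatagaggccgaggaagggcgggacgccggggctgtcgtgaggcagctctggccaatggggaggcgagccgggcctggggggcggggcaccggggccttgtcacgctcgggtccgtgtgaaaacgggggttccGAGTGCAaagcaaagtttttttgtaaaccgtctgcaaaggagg
Mt1 and Slc30a1 each held 1 match and Mt2 held 3. One of these cores was found in all 4 raised list members, in 5 of the 15 uncalled members with a promoter sequence and in 34.8% of the 11401 tested genes with one. A match describes letters and not binding.

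Genes that p53 is known to activate formed the largest raised class among the lists by count. Of 31 tested, 10 rose and 1 fell, against 2.11% and 1.85% of all tested genes, and the median log2 fold change was 0.75. Cdkn1a, the inhibitor that stops the cycle in G1, was at 48.4, 63.2 and 58.1 CPM untreated and 213, 98.7 and 118 CPM treated (log2 fold change 1.34 ± 0.284 SE, adjusted p = 0.0380). Mdm2, which marks p53 for degradation, was at 109, 109 and 127 CPM untreated and 253, 253 and 188 CPM treated (1.01 ± 0.186 SE, adjusted p = 0.0262). Perp, a membrane protein of the death response, rose 3.27-fold (adjusted p = 0.0189). Tnfrsf10b, a death receptor, rose 2.51-fold (adjusted p = 0.0194). Pmaip1, which codes for the death-promoting protein Noxa, rose 2.65-fold (adjusted p = 0.0387). The stress genes Ccng1, Trp53inp1, Polk, Eda2r and Sesn2 made up the other raised members, with adjusted p-values of 0.0204, 0.0287, 0.0313, 0.0373 and 0.0459. Ccng2, the member that fell, is a cyclin that rises in arrested cells, and it went from 96.3, 89.0 and 87.2 CPM to 39.6, 28.4 and 40.7 CPM (adjusted p = 0.0154). Bbc3, which codes for Puma, was at 81.9, 16.7 and 45.0 CPM in treated and 29.5 to 31.7 CPM in untreated libraries and was not called. Without treated replicate 2, 14 of the 31 rose and 1 fell, against 5.98% and 4.48% of all tested genes. With the length trends removed, 12 rose and 1 fell, against 3.33% and 3.28%.

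Lysosomal genes formed the next raised class. Of 36 tested lysosome and autophagy genes, 8 rose and none fell, and the median log2 fold change was 0.39. Lamp1, the main glycoprotein of the lysosomal membrane, was at 300, 297 and 337 CPM untreated and 656, 626 and 635 CPM treated. The treated values sat close together and 1.04 ± 0.164 (SE) log2 units above the untreated ones (adjusted p = 0.0194). The raised enzymes included Gaa, which breaks down glycogen, and Hexa, which acts on glycolipids and rose 2.05-fold (adjusted p = 0.0313). Atp6v0d1, a subunit of the proton pump, rose 1.93-fold (adjusted p = 0.0273), and Npc1, the cholesterol exporter, 1.74-fold (adjusted p = 0.0412). The count went from 8 to 17 without treated replicate 2 and to 13 with the length trends removed, while the raised share of all tested genes went from 2.11% to 5.98% and 3.33%. Many lysosomal genes carry a CACGTG box near the start, the core of a site known to bind Tfeb. Lamp1 is shown because 4 such boxes, in capitals, lie within the 250 bases before its start (RefSeq, GRCm38.p6, + strand, chr8:13158911-13159160):
Lamp1: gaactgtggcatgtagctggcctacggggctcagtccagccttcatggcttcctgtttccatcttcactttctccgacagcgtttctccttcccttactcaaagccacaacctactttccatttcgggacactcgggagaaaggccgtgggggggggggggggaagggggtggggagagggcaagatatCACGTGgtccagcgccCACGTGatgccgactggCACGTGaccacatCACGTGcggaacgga
The box was found in 2 of the 4 raised members with a promoter sequence (Gaa and Lamp1), in 7 of 23 uncalled members and in 9.74% of tested genes.

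Other stress lists were raised in smaller part. Of 41 tested integrated stress response genes, targets of the factor Atf4, 4 rose (9.76%, against 2.11% of all tested genes). Trib3, a pseudokinase that Atf4 induces, went from 9.06, 12.1 and 9.34 CPM to 41.5, 27.8 and 39.2 CPM (log2 fold change 1.83 ± 0.24 SE, adjusted p = 0.0103). The amino acid transporter Slc7a3, the leucine sensor Sesn2 and the factor Atf3 rose 1.89-, 2.23- and 2.54-fold. Ddit3, which codes for Chop and shares exons on the other strand with Mars, was at 32.6, 18.7 and 24.3 CPM treated and 10.6, 16.1 and 12.7 CPM untreated (adjusted p = 0.0770). Without treated replicate 2, 12 of the 41 rose and 2 fell, against 5.98% and 4.48% of all tested genes. With the length trends removed 7 rose and 1 fell, against 3.33% and 3.28%. Of 28 interferon and MHC genes, 4 rose (14.3%, against 2.11% of all tested genes). Among them were the RNA sensor Ddx58 (adjusted p = 0.0353), the peptide transporter Tap1 (0.0395) and B2m (0.0426). The fold change was 1.74 for B2m and 2.84 for Tap1, and the median log2 fold change of the list was 0.67. Without treated replicate 2, 8 rose, and with the length trends removed 5 did, beside the same shares of all tested genes. Neither the 22 ER chaperones nor the 22 cytosolic and mitochondrial chaperones had a member called by edgeR. At an unadjusted p under 0.05 there were 4 higher and 2 lower ER chaperones and 3 higher chaperones of the other list, and DESeq2 called 1 and 2, with the shares of all tested genes as given for the iron genes.

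Some matrix and adhesion genes rose. Of 56 tested matrix and fibroblast genes, 5 rose and none fell, against 2.11% raised of all tested genes, with a median log2 fold change of 0.64. The count was 12 without treated replicate 2 and 3 with the length trends removed, while the raised share of all tested genes was 5.98% and 3.33%. All 5 code for basement membrane proteins, namely the laminin chains Lamb1 and Lama5, the nidogens Nid1 and Nid2, and the proteoglycan Hspg2. Hspg2 was at 418, 431 and 406 CPM untreated and 1304, 828 and 630 CPM treated (adjusted p = 0.0459), and Lamb1 at 112, 132 and 144 CPM untreated and 258, 265 and 235 CPM treated (adjusted p = 0.0246). These are long transcripts, and with the length trends removed the adjusted p of Hspg2 was 0.0647 and that of Lama5 0.0608. The fibroblast collagen Col1a1 ranged from 4.35 to 38.7 CPM in untreated and from 15.8 to 78.9 CPM in treated libraries, so the groups overlapped. Of the surface and actin genes, Itga3, Myh9 and Actn1 rose 2.40-, 1.9- and 1.76-fold, and Tmsb4x, which binds actin monomers, fell from 750, 451 and 363 CPM to 139, 110 and 90.1 CPM (adjusted p = 0.0105). Of these 41 tested genes, 3 rose and 1 fell (7.32% and 2.44%, against 2.11% and 1.85% of all tested genes). Without treated replicate 2, 8 rose, against 5.98% of all tested genes in that fit. Ocln, a tight junction protein, was the only 1 of 16 epithelial genes called (2.14-fold, adjusted p = 0.0283), while all 16 had a log2 fold change above 0, with a median of 0.89. Of all 16269 tested genes, 2.11% were raised and 8415 had a log2 fold change above 0. Without treated replicate 2, 9 of the 16 rose, and with the length trends removed 7 did, against 5.98% and 3.33% of all tested genes.

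Among the 15 genes raised most, counted over genes with a mean of at least 100 counts, several belong to none of these lists. Ano3, a membrane protein of the anoctamin family, headed them, from 1.40, 3.40 and 4.51 CPM to 21.9, 29.1 and 7.52 CPM (6.41-fold, adjusted p = 0.0361). Slc16a9, a monocarboxylate carrier, went from 2.67, 4.64 and 5.04 CPM to 19.6, 30.5 and 19.1 CPM (5.66-fold, adjusted p = 0.0103). Ahnak, a large scaffold protein, went from 55.4, 43.0 and 35.2 CPM to 303, 270 and 84.0 CPM (4.91-fold, adjusted p = 0.0264). Treated replicate 3 was the lowest treated library for all 3. Their groups did not overlap, as held for all 343 raised genes and was a condition for this choice. Nr3c1, the glucocorticoid receptor, rose 3.69-fold (adjusted p = 0.0204), and the drug efflux pump Abcb1b rose 4.09-fold (adjusted p = 0.0204). Prrg4, Arap2, Fam129a and Kcnj4, a potassium channel, rose 4.41-, 4.16-, 3.78- and 3.67-fold. The mitochondrial ribosomal RNA mt-Rnr1 was at 384, 1026 and 195 CPM treated and 67.4 to 108 CPM untreated (adjusted p = 0.0324). With mt-Nd2 it was 1 of 2 raised among 15 tested mitochondrially encoded genes, and 14 of the 15 were highest in treated replicate 2.

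**Figure D3:**
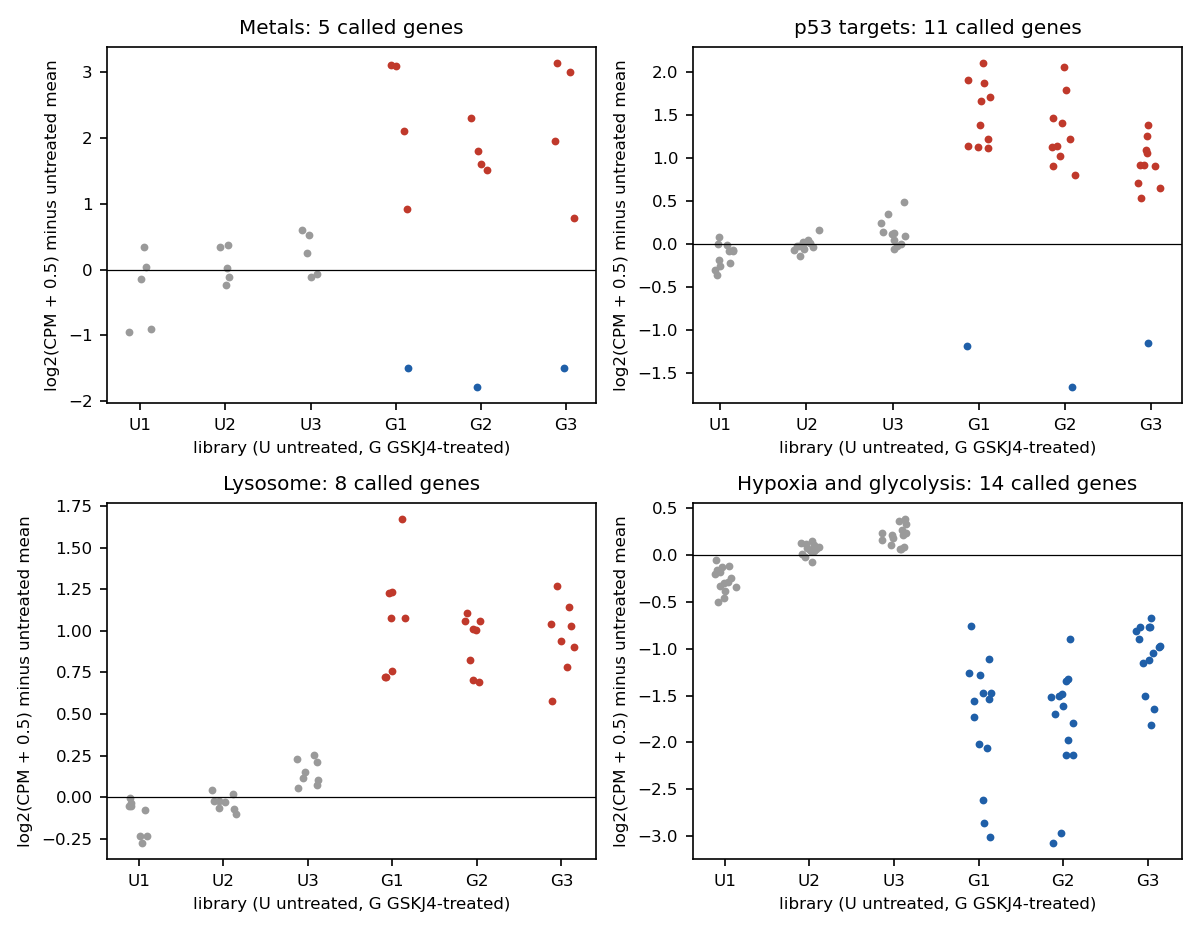
Level of the called genes of 4 lists in each D4H8 library, as log2(CPM + 0.5) minus the mean of the untreated libraries, with 1 point per gene (raised genes red, lowered genes blue, untreated libraries grey). Ankrd37, whose exons overlap another gene, is left out of the glycolysis panel, and Mt1 and Mt2 are nearer to the untreated level in treated replicate 2 than in the other treated libraries.

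Of the lists, proneural, ventral progenitor and motor neuron factors had the lowest median log2 fold changes. Of 14 tested ventral progenitor factors, 6 fell (42.9%, against 1.85% of all tested genes) and none rose. Of the 14, 13 had a log2 fold change below 0 (median -1.99), as had 7854 of all 16269 tested genes. Olig1, the neighbour and relative of Olig2, was at 56.9, 38.9 and 45.5 CPM untreated and 3.31, 1.07 and 3.70 CPM treated, a 17.4-fold fall (adjusted p = 0.0030). Nkx6-1, a homeodomain factor of ventral progenitors, went from 303, 180 and 199 CPM to 91.5, 23.6 and 31.3 CPM (adjusted p = 0.0383). Treated replicate 1 kept the most Nkx6-1 and treated replicate 2 the least. Nkx2-9, Nkx6-2 and Dbx1 fell 5.59-, 4.6- and 10.1-fold, Dbx1 from 3.83 CPM or less. The wider progenitor marker Sox2 averaged 123 ± 27.7 CPM untreated and 94.2 ± 26.6 CPM treated (SD, n = 3 each) and was not called in the fit across all genes (adjusted p = 0.359).

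Of 9 tested proneural bHLH factors, which commit progenitors to become neurons, 4 fell (44.4%, against 1.85% of all tested genes). All 9 had a log2 fold change below 0 (median -2.14). Neurog2 was at 112, 92.2 and 96.9 CPM untreated and 7.14, 3.65 and 8.42 CPM treated. This 15.7-fold fall (log2 fold change -3.97 ± 0.306 SE, adjusted p = 0.0027) stood against a narrow spread in both groups, and no left-out library took its adjusted p above 0.0202. Neurod4, which acts after the neurogenins, went from 348, 191 and 171 CPM to 46.5, 42.5 and 16.2 CPM (adjusted p = 0.0194). Neurod1 went from 75.3, 37.1 and 44.5 CPM to 22.5, 5.85 and 7.22 CPM (adjusted p = 0.0491, and 0.0565 without treated replicate 2).

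Factors of the neurons themselves were lower too. Of 15 motor neuron factors, Isl1, Lhx3, Onecut1 and Chat fell (26.7%, against 1.85% of all tested genes). Isl1 was at 141, 108 and 95.8 CPM untreated and 30.8, 20.4 and 12.5 CPM treated (log2 fold change -2.44 ± 0.32 SE, adjusted p = 0.0103), and Lhx3 at 16.6, 21.4 and 20.3 CPM untreated and 3.48, 0.691 and 2.57 CPM treated (adjusted p = 0.0194). Mnx1, another motor neuron homeodomain factor, was at 23.2, 25.8 and 38.8 CPM untreated and 20.9, 10.3 and 30.3 CPM treated, and these ranges overlapped (adjusted p = 0.417). Of 30 early neuronal differentiation factors, 8 fell (26.7%, against 1.85% of all tested genes). Among them were the POU factors Pou3f2 and Pou3f3 (7.14- and 8.15-fold), Ebf2 (5.99-fold), the repressor Prdm8 (11.2-fold) and its relative Prdm12 (10.4-fold). The long noncoding RNA Miat was the most abundant of the 15 genes lowered most, at 1575, 1123 and 1100 CPM untreated and 211, 49.2 and 99.6 CPM treated (10.5-fold, adjusted p = 0.0136). Hk3, a hexokinase, headed that group with a 17.8-fold fall, and its exons overlap those of the netrin receptor Unc5a on the other strand, which fell 5.78-fold. The remaining ones included Rgs16 (12.6-fold), a brake on G-protein signalling, and the less studied genes Efcc1, Btbd17 and Wdr66 (12.7-, 11.2- and 10.6-fold).

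The Notch pathway, through which new neurons hold back their neighbours, had 8 of 30 tested members lowered and none raised, with DAPT present in both groups. The lowered share was 26.7%, against 1.85% of all tested genes. The lowered members spanned the ligands Dll1 and Dll4, the receptor Notch1, the glycosyltransferases Lfng and Mfng, and the targets Hes5, Hey2 and Nrarp. Dll1 was at 193, 120 and 141 CPM untreated and 28.6, 5.59 and 10.7 CPM treated (10.1-fold, adjusted p = 0.0194). Hey2 was at 10.3, 8.41 and 6.43 CPM untreated and 0.742, 0.880 and 0.537 CPM treated (11.6-fold, adjusted p = 0.00364). Notch1 fell 2.14-fold (adjusted p = 0.0492, and 0.0561 without treated replicate 2). Of 24 neural progenitor genes, 6 fell (25%, against 1.85% of all tested genes), including Sox3 (5.01-fold), Fabp7 (7.85-fold) and Prom1 (2.30-fold).

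Hypoxia and glycolysis genes were the largest lowered class by count. Of 38 tested, 15 fell (39.5%, against 1.85% of all tested genes) and none rose, and the median log2 fold change was -0.77. Without treated replicate 2, 19 fell, and with the length trends removed 18 did, against 4.48% and 3.28% of all tested genes. Ldha, which turns pyruvate into lactate, was at 793, 1080 and 1181 CPM untreated and 124, 119 and 285 CPM treated (5.78-fold, adjusted p = 0.0136). The lactate exporter Slc16a3 followed it, from 97.3, 153 and 178 CPM to 18.7, 17.3 and 44.1 CPM (5.35-fold, adjusted p = 0.0194). Treated replicate 3 kept the highest treated value of both genes, still below the lowest untreated one. Glucose uptake and many of the steps to pyruvate were among the lowered genes, with Slc2a1 (3.09-fold), Pfkl (2.72-fold), Aldoa and Aldoc (2.49- and 2.20-fold), Tpi1 (2.54-fold), Pgk1 (2.75-fold), Pgam1 (1.91-fold), Eno1 (1.95-fold) and Pkm (2.51-fold). Gapdh, with a log2 fold change of -0.78 and an adjusted p of 0.119, and the hexokinase Hk2, with -0.67 and 0.0968, were not called. Aldoa, Tpi1, Pgk1, Eno1, Ldha and Gapdh have near-identical copies in the genome, so reads could have been divided among them. Of the hypoxia genes outside glycolysis, Bnip3, which acts in mitophagy, fell 4.13-fold (adjusted p = 0.0136), the oxygen sensor Egln3 3.30-fold (adjusted p = 0.0311) and the collagen hydroxylase P4ha1 2.13-fold (adjusted p = 0.0448). Vegfa was at 81.8, 101 and 129 CPM untreated and 94.9, 61.3 and 108 CPM treated and was not called (adjusted p = 0.580).

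Hypoxia-inducible factors bind the letters ACGTG. The promoters of Ldha and Bnip3 are shown because these genes had the smallest p-values of the class. Each line is the 250 bases before the start (RefSeq, GRCm38.p6, 5′ to 3′ on the gene's strand) of chr7:46845554-46845803 on the + strand, the first of 2 starts given for Ldha, and of chr7:138909507-138909756 on the - strand, with the core on either strand in capitals:
Ldha: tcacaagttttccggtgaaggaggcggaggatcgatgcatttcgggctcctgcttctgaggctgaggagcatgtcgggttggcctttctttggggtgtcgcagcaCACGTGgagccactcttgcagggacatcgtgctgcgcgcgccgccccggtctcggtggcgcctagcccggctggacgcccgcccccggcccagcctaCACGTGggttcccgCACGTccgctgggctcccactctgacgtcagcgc
Bnip3: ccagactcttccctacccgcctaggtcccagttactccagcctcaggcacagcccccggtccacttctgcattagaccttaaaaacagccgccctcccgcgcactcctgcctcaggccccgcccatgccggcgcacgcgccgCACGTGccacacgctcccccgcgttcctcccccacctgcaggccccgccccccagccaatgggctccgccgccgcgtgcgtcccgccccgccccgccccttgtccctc
Overlapping matches on the 2 strands merge in the printed capitals, and 5 matches were counted for Ldha and 2 for Bnip3. The core, which is also contained in CACGTG, was found in 11 of the 15 lowered members, in 9 of 19 uncalled members with a promoter sequence and in 24.7% of tested genes.

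A small part of the cell cycle genes fell, with the D cyclins first among them. Ccnd1 was at 165, 140 and 156 CPM untreated and 38.1, 49.0 and 38.7 CPM treated, and Ccnd2, the other D cyclin called, at 913, 725 and 720 CPM untreated and 195, 210 and 155 CPM treated. Both drive entry into S phase, and both had narrow spreads within each group, with log2 fold changes of -1.87 ± 0.181 and -2.08 ± 0.201 (SE) and an adjusted p of 0.00275 each. Of 62 tested DNA replication and G1/S genes, 5 fell (Rrm2, Pcna, E2f2 and Rfc3 among them) and 50 had a log2 fold change below 0, with a median of -0.30. This count was 14 without treated replicate 2 and 9 with the length trends removed, while the lowered share of all tested genes went from 1.85% to 4.48% and 3.28%. Rrm2, which makes deoxyribonucleotides, fell 2.35-fold (adjusted p = 0.0130). Of 68 mitosis and G2/M genes, 5 fell, among them the kinase Aurka (1.98-fold) and the phosphatase Cdc25b (2.49-fold), and the median was -0.28. The mitotic count also moved with treated replicate 2, in which the list's median log2 ratio to the untreated mean was -0.01, against -0.67 and -0.40 in treated replicates 1 and 3. Without that library 32 of the 68 fell, and with the length trends removed 13 did, against 4.48% and 3.28% of all tested genes. None of the 72 nuclear-encoded respiratory chain subunits was called by edgeR, though all 72 had a log2 fold change below 0 (median -0.53). At an unadjusted p under 0.05, 22 were lower, against 11% of all tested genes, and DESeq2 called 11 lowered, against 5.94%. The subunit transcripts are short, and their median ratio was -1.04 in treated replicate 2, against -0.40 and -0.26 in replicates 1 and 3.

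Signalling and patterning genes were split between the directions. In the Wnt pathway, 2 of 45 tested genes rose and 4 fell (4.44% and 8.89%, against 2.11% and 1.85% of all tested genes). The balance turned to 7 raised and 5 lowered without treated replicate 2, against 5.98% and 4.48%. With the length trends removed 4 rose and 6 fell, against 3.33% and 3.28%. The ligands Wnt7b and Wnt9a rose 3.40- and 3.86-fold, while the extracellular inhibitors Sfrp1 and Sfrp2, the receptor Fzd9 and the ligand Wnt1 fell. Sfrp1 was at 136, 99.6 and 111 CPM untreated and 27.8, 20.8 and 26.3 CPM treated (4.63-fold, adjusted p = 0.0027). In the Sonic hedgehog pathway the co-receptor Cdon rose 1.92-fold (adjusted p = 0.0387), and Hhip, which restrains the signal and is induced by it, fell 2.21-fold (adjusted p = 0.0275). Of 29 Hox genes, Hoxb1 and Hoxb9 rose 2.13- and 2.02-fold, and Hoxd3 and Hoxd4 fell 4.40- and 4.75-fold. The share was 6.9% in each direction, against 2.11% raised and 1.85% lowered of all tested genes. Hoxd3 and Hoxd4 share exons, so their values are not separate. Of 66 axon guidance genes, 3 rose and 3 fell (4.55% each, against 2.11% and 1.85% of all tested genes). The list's median log2 fold change was -0.05. The secreted or membrane semaphorins Sema3b, Sema3e and Sema4b rose 2.92-, 2.20- and 1.71-fold, and the receptors Nrp2, Epha3 and Unc5a fell 3.14-, 8.96- and 5.78-fold. Without treated replicate 2, 7 of the 66 rose and 4 fell, against 5.98% and 4.48% of all tested genes. Fgf15, a growth factor of neural progenitors, fell from between 4.77 and 7.11 CPM to between 0.126 and 0.537 CPM (17.6-fold, adjusted p = 0.0081). No gene was called among the 19 retinoic acid pathway genes or the 43 BMP and TGF-beta genes by edgeR. At an unadjusted p under 0.05, 4 of the former were higher and 3 lower, as were 10 and 2 of the latter, and DESeq2 called 5 and 7, against 14.1% and 11% of all tested genes at an unadjusted p under 0.05 and 7.68% and 5.94% by DESeq2.

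Smaller lists had a few members called. Of all tested genes, 2.11% rose and 1.85% fell, so a few calls in a short list are not read as results about it. Of imprinted genes, 3.12% rose and 9.38% fell. Of cholesterol synthesis, synaptic and neuronal cytoskeleton genes none rose, and 8%, 7.14% and 8.57% fell. Of 32 imprinted genes, the growth regulators Grb10 and Plagl1 fell 1.76- and 2.01-fold and Peg12 4.55-fold, and Impact, which restrains a kinase of the stress response, rose 2.44-fold. Of 25 cholesterol synthesis genes, Acat2 and Fdps fell 2.07- and 1.93-fold, and 24 had a log2 fold change below 0. Without treated replicate 2, 6 of the 25 fell, against 4.48% of all tested genes. The transmitter enzymes Ddc and Th and the vesicle protein Syt2 fell 5.67-, 4.77- and 4.44-fold among 42 synaptic genes. The tubulin Tubb2b, the actin-binding protein Marcks and Dpysl4 fell 2.48-, 2.69- and 4.43-fold among 35 neuronal cytoskeleton genes. Of the cadherins, Fat1 rose 2.00-fold and Pcdh18 fell 6.85-fold. Klf6, an early response factor, rose 1.97-fold, the interneuron factor Lhx2 2.51-fold, the JmjC protein Hr 3.25-fold, the efflux pump Abcc4 2.15-fold and the glutamate receptor subunit Gria3 1.97-fold. The glycine receptor subunit Glra1 fell 6.04-fold. The median log2 fold change of the 22 tested pluripotency genes was 0.73, with none called by edgeR, 7 higher at an unadjusted p under 0.05 and 2 called raised by DESeq2. Of all tested genes, 14.1% were higher at an unadjusted p under 0.05 and DESeq2 called 7.68% raised.

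**Figure D4:**
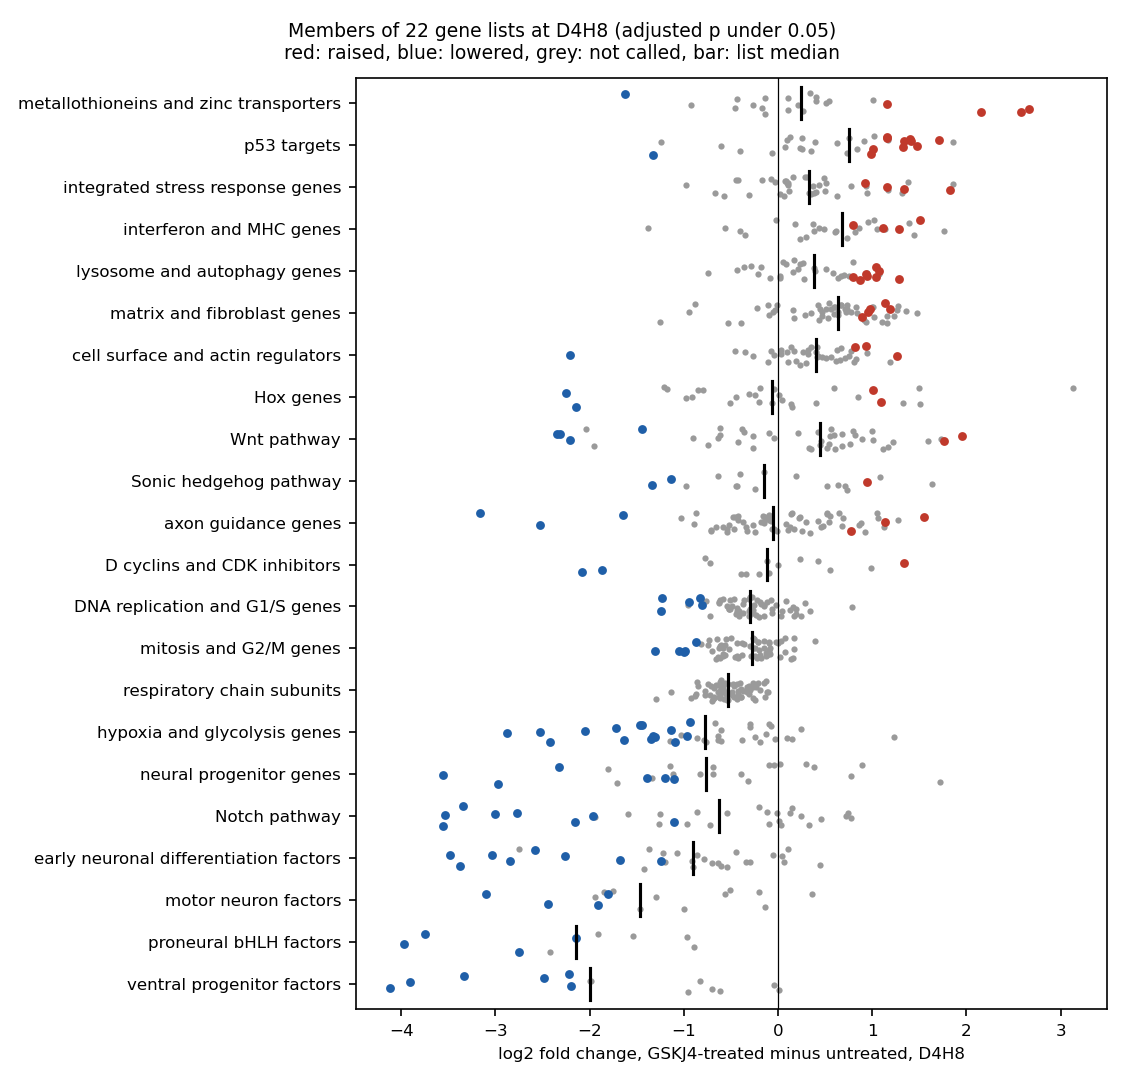
Log2 fold change, treated minus untreated at D4H8, of every tested member of 22 gene lists, with raised members in red, lowered members in blue, uncalled members in grey and the list median as a bar. The 22 lists, chosen with the results known, leave out 28 others such as the epithelial genes. Within them the medians run from 0.75 for p53 targets to -2.14 for proneural factors, and the median over all tested genes was 0.02.

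Whether genes that GSKJ4 changed at D4H8 were genes in motion at this stage was examined in the untreated D4 and D5 libraries, none of which entered the D4H8 comparison. Between D4 and D5, 21.2% of the 15797 genes tested in both comparisons rose and 18.2% fell. Of the 337 raised genes with a value, 30 (8.90%) rose between D4 and D5 and 122 (36.2%) fell. Of the 297 lowered genes, 126 (42.4%) rose and 77 (25.9%) fell. Lowered genes therefore included both kinds. Isl1, Lhx3 and Chat rose by 4.46, 4.55 and 5.77 on the log2 scale in untreated cells between D4 and D5, and Olig2, Hes5 and Ccnd2 fell, with log2 fold changes of -1.12, -4.16 and -1.77. Among raised genes, Mt1, Ano3 and Abcb1b fell over the same interval, with log2 fold changes of -1.37, -1.99 and -1.54, and Slc30a1 was at -0.30.

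**Figure D5:**
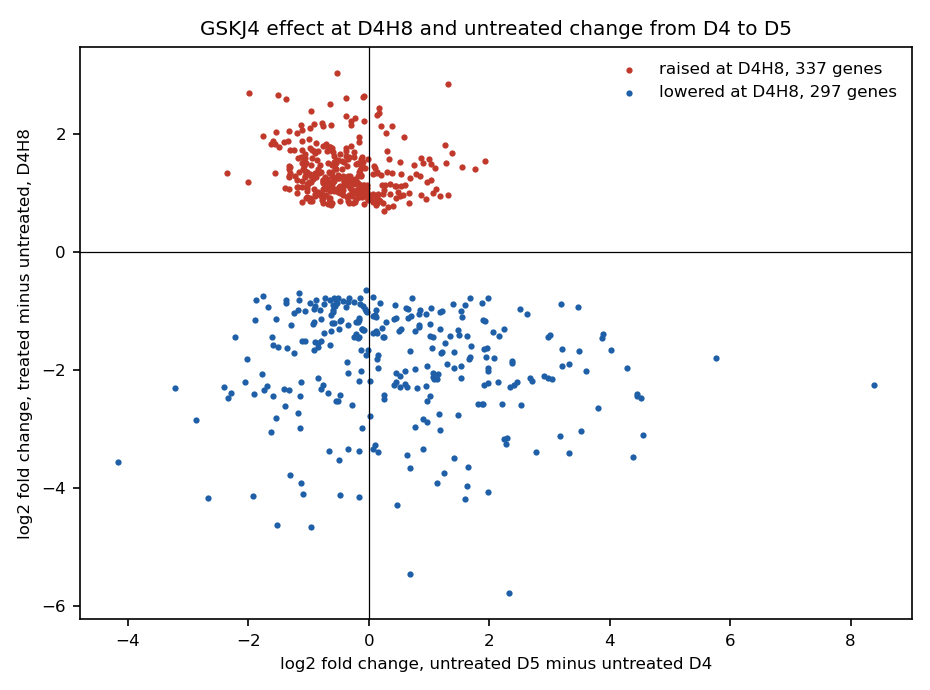
Log2 fold change under GSKJ4 at D4H8 against the log2 fold change of untreated cells from D4 to D5, from separate libraries, for 337 raised (red) and 297 lowered (blue) genes. More raised genes lie left of 0 than right of it (median -0.45), and lowered genes spread to both sides (median 0.23), up to 8.39 for Th.

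The same genes were followed in the treated and untreated libraries of D5 and D6. At D5, 302 of 336 raised genes (89.9%, against 48.0% of all genes tested at both stages) had a log2 fold change above 0 under GSKJ4, and 248 of 292 lowered genes (84.9%, against 52.0%) had one below 0. At an unadjusted p under 0.05, 72 raised genes (21.4%, background 2.38%) were higher at D5 and none lower, and 65 lowered genes (22.3%, background 2.44%) were lower and none higher. At D6 the shares with the D4H8 sign were 68.4% of raised (background 51.7%) and 55.6% of lowered genes (background 48.3%). At an unadjusted p under 0.05, 8 raised genes were higher at D6 (2.41%, background 0.486%) and 1 was lower (0.301%, background 0.604%), and 2 lowered genes were lower (0.717%, background 0.604%) and none higher. The median effect on raised genes was 0.37 at D5 and 0.07 at D6, and that on lowered genes -0.30 and -0.02. Trib3 and Slc7a3 had log2 fold changes of 2.18 and 2.05 at D5, above their 1.83 and 0.92 at D4H8, whereas Ldha went from -2.53 at D4H8 to -1.66 at D5 and -0.24 at D6. Ldha did not stand for its list, as the hypoxia and glycolysis genes had a median of -0.77 at D4H8, -0.89 at D5 and -0.12 at D6. None of the D5 values of Trib3, Slc7a3 and Ldha passed on its own (adjusted p = 0.276 for Trib3 and Slc7a3 and 0.354 for Ldha). Treated D5 replicate 2 had 39381 genes at 0, against 29339 to 32805 in the other libraries of the series. Untreated D5 replicate 1 had 0.33% mitochondrial counts, against 1.56% to 5.33% in the others. The part of these 2 libraries in the D5 effects of single genes was not tested. Trim66, picked out after its values were seen, was at 2.77 at D4H8 (adjusted p = 0.0240) and 5.46 at D5 (adjusted p = 0.00149).

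In a fit over the 18 libraries of the 3 stages, the GSKJ4 effect at D4H8 exceeded that at D5 for 3 genes (0.0166%) and lay below it for 42 (0.232%) at an adjusted p under 0.05. Against D6 the counts were 33 (0.182%) and 100 (0.552%). All 42 and 98 of the 100 were genes lowered at D4H8, and 1 of the 3 and 28 of the 33 were genes raised there. The same D4H8 libraries made those calls and enter these differences, so such a match was favoured in advance and is not separate support. Neurog2 had the smallest adjusted p of the named genes, with an effect 3.36 log2 units lower at D4H8 than at D5 (adjusted p = 0.00155) and 4.45 lower than at D6 (adjusted p = 5.59e-05). Of the raised genes, Slc30a1 differed from both stages, by 1.31 (adjusted p = 0.0249) and 1.78 (adjusted p = 0.00131). The counts against D5 ran from 0 to 13 above and 16 to 159 below when each library was left out in turn, with the largest values without treated D4H8 replicate 1, and those against D6 from 5 to 161 and 35 to 234.

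Exons of Prdm8, Ankrd37, Ccnd1, Cdca8, Nkx6-2, Dll4, Hoxd3, Tap1, Npc1 and Nid2 lie partly across those of another expressed gene on the opposite strand. Whether counting used strand is not given in the sources used here, so reads of such pairs cannot be told apart.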

How the data were processed

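The series held 21 poly-A RNA-seq libraries of 3 replicates per group, of which the 6 D4H8 libraries were compared. The authors aligned reads to mm10 with HISAT2 and deposited raw counts per gene made with HTSeq, for 55400 genes. They also deposited FPKM, made from those counts and gene lengths. Recomputed FPKM differed by at most 0.005. The submitters' processing notes also name SAMtools and DESeq2, with no versions. FPKM served for levels per length only.

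Counts of the 6 libraries were filtered with filterByExpr (minimum count 10), scaled by TMM and tested with the quasi-likelihood test of edgeR 4.0.16 in R 4.3.3, with Benjamini-Hochberg adjustment over all tested genes and a threshold of 0.05. The study's own method is DESeq2, which was used as an alternative (1.42.0), as was limma voom (3.58.1). Every adjusted p comes from edgeR unless another tool is named. Folds are fitted values, and values per library are CPM. The common biological coefficient of variation was 0.273. Totals of 14982115 to 34383842 counts per library limit precision for low genes, and 3 against 3 libraries limit it for all. A permutation of single genes over 3 against 3 libraries cannot go below p = 0.1, so none was run. Replicates were not duplicates, as the mean chi-square per gene between replicates was 7.72 or more. GSKJ4 effects at D4H8, D5 and D6 were compared by interaction terms in 1 fit over 18 libraries, and untreated D5 with D4 in a separate fit. The procedure was tested on simulated data.

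Named genes were up to 15 raised and 15 lowered genes with the largest fold among called genes with a mean of at least 100 counts, no overlap between groups and no predicted name, up to 6 called members per direction of each of 50 lists, the enzymes targeted and cell type markers. Members named beyond this rule, to complete a class or a small count, were picked with their values in view. Some members of the lists are not reported here by name, though they count in the totals. The lists and members were chosen with earlier results of these data known. Alternatives were other tools, scalings and filters, a fit over 21 libraries, a replicate block and each library left out. Removal of each library's length trend and the left-out fits of the stage comparisons were chosen after seeing the data. Promoters were RefSeq sequences (GRCm38.p6) matched by symbol, for 11401 of 16263 tested symbols, and motifs were searched on both strands.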

Additional observations from a re-analysis of the deposited data

Results flagged for a closer look

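Some named genes had a GSKJ4 effect at D4H8 that differed from the effect at a later stage, by the edgeR interaction test over 18 libraries at an adjusted p under 0.05. Values are the log2 effect at D4H8 minus that at the later stage, and a negative value belongs to a gene lowered more at D4H8. Against D5, the raised gene Slc30a1 differed by 1.31. Against D6, the raised genes with a larger effect at D4H8 were Atp6v0d1 0.93, Gaa 1.40, Slc30a1 1.78 and Trp53inp1 1.36, the first of which codes for a subunit of the lysosomal proton pump.

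Among the patterning and neurogenic factors lowered at D4H8, the differences from D5 were Hoxd4 -2.30, Neurog1 -3.77, Neurog2 -3.36 and Olig2 -3.34, and those from D6 were Hoxd4 -2.25, Neurod4 -3.11, Neurog1 -3.79, Neurog2 -4.45, Nkx2-9 -3.18, Olig1 -4.39 and Olig2 -4.28. Among the neuronal factors lowered at D4H8, the differences from D5 were Onecut1 -2.12, Pou3f2 -2.87, Pou3f3 -2.24 and Prdm8 -2.79, and those from D6 were Isl1 -2.46, Lhx3 -2.82, Onecut1 -2.03, Pou3f2 -2.95, Pou3f3 -3.04, Prdm8 -3.51 and Rcor2 -1.26. Among the Notch pathway and progenitor genes lowered at D4H8, the differences from D5 were Hey2 -2.88 and Mfng -2.73, and those from D6 were Dll1 -3.26, Dll4 -2.54, Fabp7 -2.92, Hey2 -3.12 and Mfng -3.11. Among the transmitter, cytoskeletal and surface genes lowered at D4H8, the differences from D5 were Ddc -2.23, Pcdh18 -2.15 and Th -2.59, and those from D6 were Chat -1.80, Ddc -2.57, Nrp2 -1.44, Pcdh18 -2.24, Syt2 -2.07, Th -2.49, Tmsb4x -2.23 and Tubb2b -1.40. Among other genes lowered at D4H8, the differences from D5 were Efcc1 -3.54, Miat -3.08, Sfrp1 -1.93, Slc39a14 -1.29 and Wdr66 -3.09, and those from D6 were Ankrd37 -2.69, Btbd17 -3.34, Ccnd2 -1.68, Ccng2 -1.29, Efcc1 -4.04, Ldha -2.31, Miat -3.47, Rgs16 -3.47, Sfrp1 -2.12, Slc39a14 -1.67 and Wdr66 -3.65.

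The controls and treated libraries of D4H8 enter both differences, so the values against D5 and D6 are not independent. The same libraries also decided which genes were called and named, which favours large D4H8 effects in this list.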

How the results depend on the processing

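No called gene that is named changed sign in the alternatives that could be fitted. The balance of the counts did turn, from more raised than lowered genes to 193 against 348 without treated replicate 1 and to more lowered ones without any 1 untreated library. The 343 raised and 301 lowered genes became 1249 and 966 with DESeq2 (1873 and 1497 with a local dispersion trend), 1373 and 1078 with limma voom and sample weights, 1229 and 1058 without a filter on low counts, 1058 and 990 in 1 fit over 21 libraries, and 542 and 533 with the length trends removed. Other scalings, a filter of 10 counts in every library and robust dispersion stayed within 1.5 times the counts. Leaving out 1 library gave 2 to 998 raised and 41 to 748 lowered genes, with the highest counts without treated replicate 2 and the lowest without an untreated library. The deviations of same-numbered libraries correlated at 0.497, 0.092 and 0.302. The main fit did not pair the samples by number, and whether same-numbered libraries belong together was not tested. The replicate block gave 1235 raised and 1039 lowered genes. Genes whose effect at D4H8 was above or below that at D5 numbered 87 and 160 with DESeq2, 92 and 229 with the replicate block, and 0 to 13 and 16 to 159 with a library left out. Against D6, where fewer lay above than below, they numbered 305 and 298 with DESeq2, 161 and 119 without treated D4H8 replicate 3, 360 and 520 with the block, and 5 to 161 and 35 to 234 with a library left out. The cause of these shifts was not tested. Of the 150 called genes named, 150 kept their call with DESeq2, limma voom and the block, and 26, 27 and 22 kept it without each untreated library in turn.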
